A study of Glycine max with 6 samples.

Results

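The genes described here encode enzymes of glycolysis, gluconeogenesis and the alcohol and aldehyde reactions that the KEGG glycolysis map includes. They are the genes of the deposited table whose KEGG entry holds map 00010, without those that also carry the maps for carbon fixation (00710), the citrate cycle (00020) or glyoxylate metabolism (00630). Of 45967 genes in the table, 188 carry the glycolysis map, 133 remained after that exclusion and 123 also had a sum of at least 60 counts over the 6 libraries. The 10 genes left out had sums up to 51 counts, in GLYMA_09G280800, and the lowest sum kept was 71, in GLYMA_11G133300. The table gives a KEGG entry for only 6534 genes, so the 123 are not every gene of these enzymes, and 121 of them have no description beyond "hypothetical protein". Enzyme names therefore follow the EC number in the table, which places the genes in 20 enzyme groups.

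All leaves came from soybean (Glycine max) cultivar HN95, genotype WT, grown under saline-alkaline stress. The MSN group had its leaves sprayed with mesoporous silica nanoparticles (MSN, porous silica particles) at 20 mg/L, and the control group carries the stress alone in its labels, with 3 libraries in each group. Every pot held 20 kg of a peat and vermiculite mix that had received 3 L of a sodium salt solution, with chloride (NaCl) and carbonate (Na2CO3) at 40 mM each and bicarbonate (NaHCO3) and sulfate (Na2SO4) at 320 mM each. Leaves were taken 7 days after the spray. The treatment tags of the MSN libraries read 20, 21 and 22 mg/L; titles and protocol name a single treatment, so they form 1 group. No source used here says whether control leaves received a particle-free spray, or whether libraries of a group came from separate plants, so p-values measure the spread between these libraries only.

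Glycolysis splits hexose phosphates into triose phosphates and oxidises them to pyruvate, and gluconeogenesis runs many of the same steps the other way. In leaves the pathway runs in the cytosol and in part in the plastid, fed by sugars and starch made in photosynthesis. Pyruvate can enter the mitochondrion, or be reduced to ethanol through pyruvate decarboxylase and alcohol dehydrogenase or to lactate through lactate dehydrogenase, reactions known in plants from flooded, oxygen-poor tissue.

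Transcript levels of these enzymes went both ways in MSN leaves. Among the 123 genes, most enzyme sums from triose phosphate to pyruvate and the sum of NADP+ alcohol dehydrogenase were lower. Triose-phosphate isomerase, phosphoglycerate kinase and phosphorylating glyceraldehyde-3-phosphate dehydrogenase are not among these genes. Summed over the 123 genes, the level was 4533, 4467 and 4470 CPM (counts per 1000000 counts of the library, TMM-scaled) in MSN libraries, against 5405, 5235 and 5281 CPM in control libraries, a ratio of 0.846. The groups did not overlap. Abundant genes weigh most in this sum, and genes of the same activities without the glycolysis map, described further below, are not in it. Glycolysis genes left out for their other maps are not in it either, and with them the summed levels per length overlapped between the groups. GLYMA_03G066800, the most abundant member per length, had means of 258.6 CPM in MSN and 571.7 CPM in control. By gene, 40 were higher in MSN (32.5%) and 42 lower (34.1%) at an adjusted p under 0.05 (edgeR quasi-likelihood test fitted to all 39203 genes tested, n = 3 against 3), and 41 did not pass. All 123 had passed the filter on low counts. In the whole transcriptome 29.6% of genes were higher and 29.7% lower, 59.3% in all, against 66.7% of these genes. Their median log2 fold change, MSN over control, was 0.0033 and that of all genes tested 0.0055. MSN and control values did not overlap in 86 of the 123 (69.9%), 44 with MSN above and 42 with MSN below, where the share over all genes was 65.0%. Most changes were small: the median size among called genes was 0.57 on the log2 scale. A change of at least 1 on that scale was reached by 4 higher genes (3.25%, against 9.27% of all genes) and by 7 lower genes (5.69%, against 7.01%). In bulk leaf RNA, fewer cells of a type and less RNA per cell cannot be told apart.

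By abundance, with no test between the classes, the counts were as follows. Shares over all genes of the same abundance were not computed, so these counts do not set the members apart from other genes. Of 52 genes with a mean of at least 10 FPKM (the deposited unit, scaled by gene length and library total), 18 were higher and 27 lower. Of 49 genes between 1 and 10 FPKM, 18 were higher and 13 lower, and of 22 genes under 1 FPKM, 4 were higher and 2 lower. By role, 14 of 29 genes of hexose entry were higher and 8 lower (median log2 fold change 0.17), and 6 of 20 genes of the fructose 6-phosphate step were higher and 4 lower (median -0.11). From triose to pyruvate 9 of 35 were higher (25.7%) and 14 lower (40.0%, median -0.14). For fermentation and aldehydes 11 of 39 were higher (28.2%) and 16 lower (41.0%, median -0.11).

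**Figure D1:**
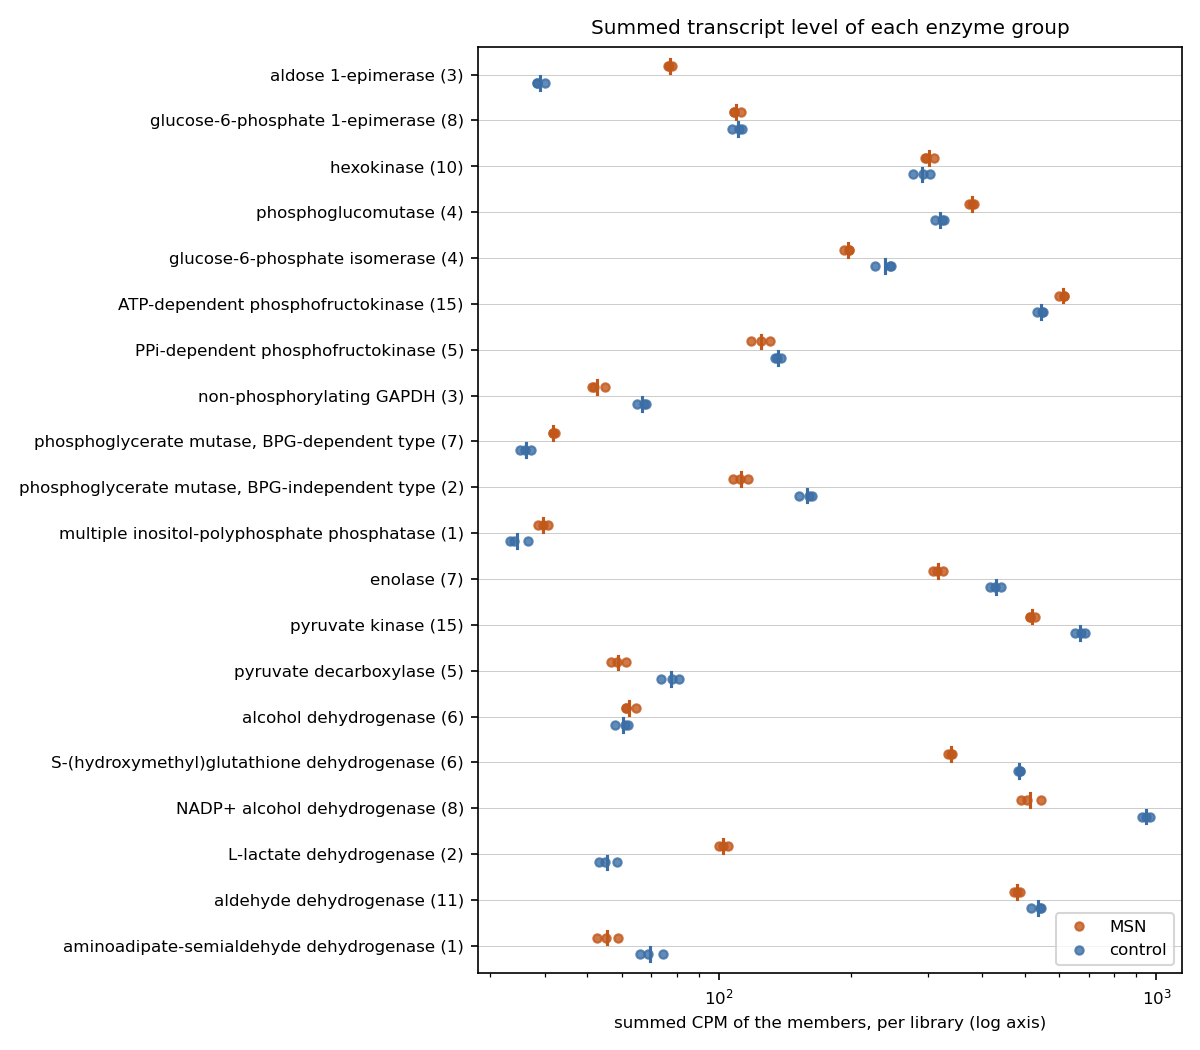
Summed TMM-scaled CPM (log axis) of the member genes of each enzyme group, with 1 point per library, a bar at the mean of 3 libraries, and the number of members in brackets. MSN points lie above all control points in 6 groups, below them in 11 and among them in 3.

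The 20 enzyme groups were then compared as sums over their members, library by library and with no test. MSN libraries were above control libraries in 6 groups, below in 11 and overlapping in 3. The ratios of means ran from 1.98 for aldose 1-epimerase to 0.543 for NADP+ alcohol dehydrogenase. Because the KEGG column is sparse, 85 further genes carry one of these activities as a Gene Ontology (GO) term but no glycolysis map, and 75 of them were tested. With them added, some groups share a GO term and 17 activities could be formed: MSN was above control in 6, below in 10 and overlapping in 1, hexokinase. Aldehyde dehydrogenase and aminoadipate-semialdehyde dehydrogenase were kept apart although they share 1 added gene. Sums with the added genes are given below beside those of the members, except for phosphoglucomutase, whose 1 added gene was too low to be tested.

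Hexose entry held the enzyme group with the largest rise. Aldose 1-epimerase, which interconverts the alpha and beta forms of sugars such as glucose, summed to 78.0, 76.5 and 76.7 CPM in MSN leaves, against 38.4, 40.0 and 38.4 CPM in control leaves, and all 3 of its genes rose. Its most abundant gene, GLYMA_07G102900 on chromosome 7 at 9843095 to 9845966 (minus strand), had 56.8, 55.4 and 56.9 CPM in MSN and 25.0, 27.9 and 26.5 CPM in control (log2 fold change 1.09, SE 0.05, edgeR adjusted p = 2.43e-12). The groups lay far apart in that gene. GLYMA_09G176100 rose by 0.84 and GLYMA_09G239800 by 0.65 on the log2 scale. With the 3 genes outside the map, the activity was 89.2 ± 1.03 CPM in MSN and 51.9 ± 1.36 CPM in control (SD, n = 3 each).

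Glucose-6-phosphate 1-epimerase interconverts the alpha and beta forms of glucose 6-phosphate. Its 8 member genes summed to 109.5 ± 2.25 CPM in MSN and 110.5 ± 3.07 CPM in control (SD, n = 3 each), and the groups overlapped. Within that level sum, 5 genes rose and 2 fell. The most abundant, GLYMA_13G098500, had 50.0, 53.1 and 50.4 CPM in MSN and 47.6, 47.9 and 41.5 CPM in control, a small rise (log2 fold change 0.16, SE 0.06, adjusted p = 0.0180) that was not called without MSN replicate 2, without control replicate 3 or on log2(FPKM + 1) with no filter. The low-abundance GLYMA_03G255100 had 3.06, 2.50 and 3.34 CPM in MSN and 1.49, 1.42 and 2.05 CPM in control, a rise of 0.84 (SE 0.20, adjusted p = 0.00148). GLYMA_15G163600 and GLYMA_09G057300 fell by 0.40 and 0.38. Outside the map 9 more genes carry this activity, with means from 0.128 to 367.1 CPM in MSN and from 0.574 to 315.0 CPM in control. Of these 8 rose and 1 fell, and with them the sum was 937.2 ± 13.4 CPM in MSN and 672.3 ± 10.1 CPM in control.

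Hexokinase phosphorylates glucose and, in Arabidopsis, also acts as a glucose sensor. Its 10 genes summed to 295.1, 310.7 and 298.0 CPM in MSN and 292.1, 277.9 and 303.7 CPM in control, so the groups overlapped. Beneath that sum, 3 genes rose, 3 fell and 4 did not pass. GLYMA_08G033300, the most abundant over all libraries, had 44.7, 47.0 and 44.2 CPM in MSN and 54.0, 53.1 and 55.2 CPM in control, a fall of 0.26 (SE 0.05, adjusted p = 0.000125). GLYMA_01G226900 moved against the sum, with 24.5, 26.6 and 26.1 CPM in MSN and 32.3, 32.0 and 32.9 CPM in control (log2 fold change -0.33, adjusted p = 6.05e-05). GLYMA_05G226600 came next in level after GLYMA_01G007200 and did not pass, with 38.7, 36.8 and 39.0 CPM in MSN and 41.0, 38.4 and 45.7 CPM in control (adjusted p = 0.0824). It passed once control replicate 2 was left out (log2 fold change -0.18). In MSN leaves GLYMA_01G007200 was the most abundant hexokinase gene at 21.6 FPKM, against 14.0 FPKM in control leaves, where GLYMA_08G033300 led with 23.5 FPKM, against 19.7 FPKM in MSN. GLYMA_01G007200 rose by 0.63 and GLYMA_11G095600 by 0.82 on the log2 scale. With 2 genes outside the map the hexokinase sum was 310.5 ± 8.66 CPM in MSN and 300.2 ± 14.1 CPM in control. All 10 hexokinase genes carry a mitochondrial GO term, as no other member does.

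Phosphoglucomutase links glucose 1-phosphate, the product of starch and sucrose breakdown, with glucose 6-phosphate. Its 4 genes summed to 378.8, 372.6 and 382.1 CPM in MSN, above 326.3, 311.3 and 322.8 CPM in control. GLYMA_10G241000 rose by 0.67 and GLYMA_20G153600 by 0.63, with SEs of 0.04 and 0.05. GLYMA_08G044100, the most abundant over all libraries, had 111, 108 and 111 CPM in MSN and 100.2, 102 and 103 CPM in control, a rise of 0.11 (SE 0.04, adjusted p = 0.0146) that was not called without MSN replicate 3. The fourth gene went the other way: GLYMA_05G237000 had 51.8, 54.0 and 54.2 CPM in MSN and 87.3, 77.8 and 83.3 CPM in control (log2 fold change -0.63, SE 0.05, adjusted p = 1.79e-09).

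Glucose-6-phosphate isomerase makes fructose 6-phosphate, and it was lower as a sum, at 193.6, 198.7 and 198.7 CPM in MSN against 246.9, 227.1 and 246.1 CPM in control. Most of that gap lay in 1 gene, GLYMA_04G092400 on chromosome 4 at 8143361 to 8148903 (minus strand), which carries a chloroplast and a cytosol term. It had 37.1, 37.0 and 34.9 CPM in MSN and 77.7, 71.0 and 75.4 CPM in control (log2 fold change -1.04, SE 0.05, adjusted p = 1.82e-12), and it held 16.7% of the group's FPKM in MSN and 28.5% in control. GLYMA_06G094300, the most abundant, had 82.2, 79.6 and 82.0 CPM in MSN and 90.8, 83.0 and 89.9 CPM in control. Its fall of 0.11 passed (adjusted p = 0.0346) but was lost without MSN replicate 2, without control replicate 1, without control replicate 3, under quantile normalisation and on log2(FPKM + 1) with no filter. GLYMA_02G212600, with 59.0, 64.9 and 66.4 CPM in MSN and 65.4, 58.5 and 66.0 CPM in control, did not pass and the groups overlapped (log2 fold change 0.0033, SE 0.06). GLYMA_06G094300 and GLYMA_02G212600 also carry a chloroplast and a cytosol term. With 3 genes outside the map the isomerase sum was 242.5 ± 2.08 CPM in MSN and 288.1 ± 9.76 CPM in control (SD, n = 3 each).

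At the fructose 6-phosphate step, the member sum of the enzyme that spends ATP was higher in MSN. The member sum of the enzyme that spends pyrophosphate was lower, but this turned round once a gene outside the map was added. ATP-dependent phosphofructokinase, the committed step of glycolysis, summed over 15 genes to 615.9, 614.8 and 598.9 CPM in MSN and 549.8, 533.9 and 548.1 CPM in control. Here 6 genes rose, 3 fell and 6 did not pass. GLYMA_01G005400, the most abundant, had 181, 178 and 174 CPM in MSN and 116, 117 and 124 CPM in control (log2 fold change 0.58, SE 0.04, adjusted p = 2.59e-10), and without it the rest of the group summed to 432.2 CPM in MSN and 425.2 CPM in control. GLYMA_07G014300 rose by 0.90 (SE 0.07, adjusted p = 1.09e-09), with 30.9, 28.2 and 29.5 CPM in MSN and 15.8, 16.7 and 14.9 CPM in control. GLYMA_05G224900, on chromosome 5 at 40366096 to 40370669 (minus strand), showed one of the largest falls of all members. It had 4.97, 4.58 and 3.85 CPM in MSN and 28.0, 28.8 and 29.1 CPM in control (log2 fold change -2.68, SE 0.09, adjusted p = 1.25e-14). GLYMA_08G199800, the second most abundant, fell by 0.42.

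The 5 genes of the PPi-dependent phosphofructokinase, a reversible enzyme of plants and some microbes, all had log2 fold changes between -0.22 and -0.06, and 1 passed. That gene, GLYMA_07G263800, fell by 0.18 (adjusted p = 0.00937). The most abundant, GLYMA_07G160500, had 36.7, 38.4 and 38.0 CPM in MSN and 41.3, 39.1 and 37.1 CPM in control, and did not pass (adjusted p = 0.389). The sum was 118.5, 124.6 and 130.5 CPM in MSN, below 138.7, 135.7 and 134.5 CPM in control by less than the range within MSN. Outside the map, GLYMA_17G010100 carries both phosphofructokinase activities as GO terms, at 73.3 ± 2.64 CPM in MSN and 42.4 ± 2.39 CPM in control, and it rose by 0.79 (SE 0.05, adjusted p = 1.41e-10). Counted with the PPi-dependent type, it put that sum at 194.5, 197.3 and 201.4 CPM in MSN, above 180.8, 180.7 and 174.8 CPM in control, so the direction of this enzyme rests on where that gene is counted. With the genes outside the map, the ATP-dependent type was 712.9 ± 13.9 CPM in MSN and 604.2 ± 7.56 CPM in control, and both types together were 837.4 ± 8.50 CPM in MSN and 740.5 ± 8.97 CPM in control.

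From triose phosphate to pyruvate, 4 of the 6 enzyme sums were lower in MSN. The non-phosphorylating glyceraldehyde-3-phosphate dehydrogenase, a cytosolic plant enzyme that yields NADPH in place of ATP, summed to 55.0, 51.4 and 51.8 CPM in MSN and 68.0, 65.0 and 67.4 CPM in control. Its most abundant gene, GLYMA_17G075300, did not pass, with 38.7, 37.0 and 38.3 CPM in MSN and 39.6, 36.4 and 38.2 CPM in control (adjusted p = 0.978), so the gap of the group lay in GLYMA_02G202500, which fell by 0.97 (SE 0.07, adjusted p = 1.25e-09).

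Phosphoglycerate mutase moves the phosphate of phosphoglycerate, and its BPG-independent type is the one known to serve glycolysis in plants. Both genes of that type fell, and the sum was 107.7, 111.8 and 116.7 CPM in MSN, against 163.4, 152.3 and 160.8 CPM in control. GLYMA_09G270500 had 70.1, 75.2 and 77.0 CPM in MSN and 94.7, 89.0 and 93.0 CPM in control (log2 fold change -0.32, SE 0.05, adjusted p = 8.76e-06), and GLYMA_18G219100 fell by 0.81 (SE 0.05). Genes under the EC number of the BPG-dependent type were at 42.1, 41.7 and 41.7 CPM in MSN and 37.2, 36.1 and 35.1 CPM in control. Of those 7 genes, 3 rose and none fell. GLYMA_05G080400, which holds 82.4% of that group's FPKM in MSN and 84.3% in control, had 29.2, 29.3 and 29.4 CPM in MSN and 25.8, 27.6 and 24.7 CPM in control, a rise of 0.17 (adjusted p = 0.0189). That call was lost without MSN replicate 3, without control replicate 1 and without control replicate 3. On the same chromosome lies GLYMA_05G080100, the 1 gene annotated as multiple inositol-polyphosphate phosphatase, which also acts on bisphosphoglycerate. It had 40.8, 38.7 and 39.5 CPM in MSN and 36.5, 33.4 and 33.9 CPM in control (log2 fold change 0.20, SE 0.05, adjusted p = 0.00411). With the genes outside the map, the phosphatase was 56.3 ± 1.02 CPM in MSN and 49.4 ± 1.45 CPM in control, and both mutase types together were 156.3 ± 4.45 CPM in MSN and 196.6 ± 6.07 CPM in control.

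Enolase, which makes phosphoenolpyruvate, rested on a single gene among the members. GLYMA_03G190500, on chromosome 3 at 40120464 to 40124965 (plus strand), held 89.5% of the group's FPKM in MSN and 93.2% in control. It had 283, 271 and 268 CPM in MSN and 404, 390 and 380 CPM in control (log2 fold change -0.51, SE 0.04, adjusted p = 4.00e-10). The other 6 genes summed to 42.1 CPM in MSN and 38.0 CPM in control. Among them GLYMA_16G204600 rose by 0.97 (SE 0.20, adjusted p = 0.000313), with 2.76, 3.48 and 3.42 CPM in MSN and 2.03, 1.49 and 1.40 CPM in control. The member sum was 316.2 ± 7.98 CPM in MSN and 429.1 ± 12.6 CPM in control. Outside the map, GLYMA_19G190900 carries the same activity at a similar level, 380.0 ± 15.1 CPM in MSN and 312.9 ± 5.84 CPM in control, and it rose by 0.28 (SE 0.04, adjusted p = 1.57e-06). With all genes of the activity, enolase was 712.3 ± 17.5 CPM in MSN and 761.4 ± 19.3 CPM in control, a log2 difference of -0.10 in place of -0.44.

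Pyruvate kinase, which makes pyruvate and ATP, had 9 of 15 genes lower and 3 higher. Its sum was 527.1, 514.1 and 515.2 CPM in MSN, below 687.0, 651.9 and 670.9 CPM in control. With 12 genes outside the map it was 804.1 ± 13.0 CPM in MSN and 1007 ± 28.9 CPM in control. The added genes went both ways: of 10 tested, 4 rose and 3 fell. Their deepest fall was in GLYMA_09G126300, with 26.4 ± 0.89 CPM in MSN and 104.9 ± 3.65 CPM in control (log2 fold change -1.99). GLYMA_10G065000, the most abundant member, had 81.4, 73.7 and 78.5 CPM in MSN and 117, 103 and 117 CPM in control (log2 fold change -0.53, SE 0.05, adjusted p = 5.66e-08). The next most abundant, GLYMA_13G149800 and GLYMA_07G224800, fell by 0.32 and 0.41. GLYMA_16G173100, with a chloroplast term, on chromosome 16 at 33368628 to 33375202 (minus strand), stood apart: 13.4, 12.1 and 13.0 CPM in MSN, against 70.8, 70.5 and 74.0 CPM in control (log2 fold change -2.48, SE 0.06, adjusted p = 5.51e-17). Its part of the group's FPKM was 1.70% in MSN and 7.53% in control. Another pyruvate kinase gene with a chloroplast term, GLYMA_20G164500, went against the group, with 71.9, 76.7 and 69.4 CPM in MSN and 66.9, 60.6 and 63.1 CPM in control (log2 fold change 0.19, SE 0.05, adjusted p = 0.00253).

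**Figure D2:**
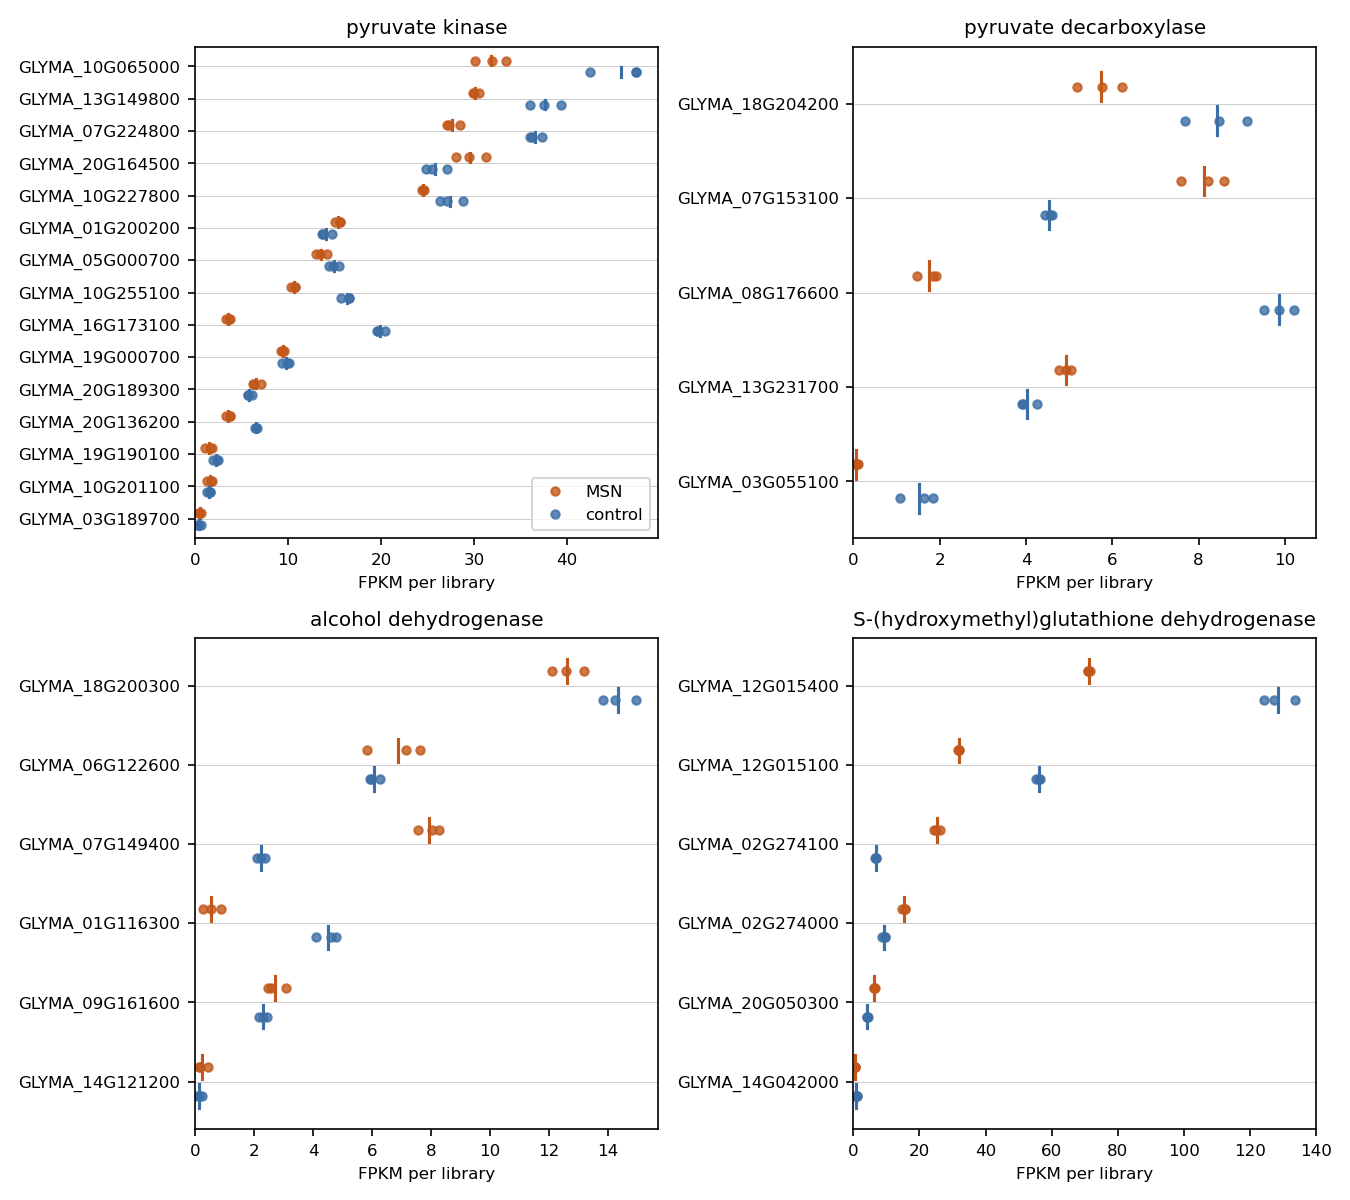
Deposited FPKM per library of each gene of 4 enzyme groups, ordered by mean FPKM, with a bar at the mean of 3 libraries. In pyruvate decarboxylase the leading gene is GLYMA_07G153100 in MSN and GLYMA_08G176600 in control.

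For pyruvate decarboxylase and alcohol dehydrogenase, single genes moved far more than the sums. Pyruvate decarboxylase, the first step of ethanol fermentation, summed to 56.8, 58.5 and 61.5 CPM in MSN and 78.0, 73.6 and 81.2 CPM in control. All 5 genes passed, 2 higher and 3 lower. GLYMA_08G176600, on chromosome 8 at 14156606 to 14162601 (minus strand), had 3.62, 4.77 and 4.63 CPM in MSN and 24.6, 23.5 and 25.6 CPM in control (log2 fold change -2.50, SE 0.10, adjusted p = 1.24e-13). GLYMA_07G153100 had 20.9, 19.4 and 22.1 CPM in MSN and 11.8, 11.3 and 11.7 CPM in control (log2 fold change 0.84, SE 0.08, adjusted p = 1.83e-08). Per length, GLYMA_07G153100 held 39.5% of the group in MSN and 16.0% in control, and GLYMA_08G176600 held 8.45% in MSN and 34.8% in control. GLYMA_18G204200, the most abundant over all libraries, fell by 0.56 (SE 0.08, adjusted p = 1.25e-05), with 13.6, 16.4 and 15.3 CPM in MSN and 22.5, 20.1 and 24.2 CPM in control.

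The deepest fall of all members was in GLYMA_03G055100, the least abundant pyruvate decarboxylase gene, on chromosome 3 at 7561669 to 7566253 (minus strand). It had 14, 0 and 19 counts in MSN libraries and 276, 190 and 316 counts in control libraries (log2 fold change -4.53, SE 0.45, adjusted p = 7.21e-08). Counts in these files pile up at 4 and 8, so a count of 0 was taken to allow up to 3 events of 4 counts, 12 counts or 0.177 CPM in that library, counting error only. The fold of this gene therefore rests on few events, although its groups were far apart.

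Alcohol dehydrogenase reduces acetaldehyde to ethanol. Its 6 genes summed to 64.5, 61.2 and 61.3 CPM in MSN and 61.9, 57.8 and 61.0 CPM in control, and the groups overlapped. Summed as FPKM the group was 30.9 in MSN and 29.5 in control, and the groups did not overlap. GLYMA_07G149400 rose by 1.83 (SE 0.10, adjusted p = 2.75e-11), with 16.1, 15.8 and 14.9 CPM in MSN and 4.42, 4.59 and 4.13 CPM in control. GLYMA_01G116300 fell by 3.01 (SE 0.25, adjusted p = 5.58e-09), with 1.74, 1.06 and 0.534 CPM in MSN and 9.24, 8.09 and 9.63 CPM in control. The first is on the plus strand of chromosome 7 (17949041 to 17956139) and the second on that of chromosome 1 (40139173 to 40153209). Per length, GLYMA_07G149400 made up 25.7% of the group in MSN and 7.55% in control, and GLYMA_01G116300 1.77% in MSN and 15.2% in control. The most abundant gene, GLYMA_18G200300, fell by 0.19 (SE 0.06, adjusted p = 0.0106), with 26.7, 28.2 and 26.1 CPM in MSN and 32.2, 29.4 and 30.7 CPM in control, and that call was lost without control replicate 1 and under quantile normalisation. The 6 S-(hydroxymethyl)glutathione dehydrogenase genes described below also carry the EC number of alcohol dehydrogenase. Summed over both enzyme groups, the members were lower in MSN (log2 MSN over control -0.45), with no overlap between MSN and control libraries. That fall lay in GLYMA_12G015400 and GLYMA_12G015100, whose counting is uncertain, as described below.

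L-lactate dehydrogenase reduces pyruvate to lactate. Both of its genes rose, and the sum was 99.9, 105.1 and 102.0 CPM in MSN, against 55.0, 53.3 and 58.6 CPM in control. GLYMA_17G140600, on chromosome 17 at 11418707 to 11421092 (minus strand), held 95.1% of the group's FPKM in MSN and 94.3% in control. It had 94.6, 101 and 96.4 CPM in MSN and 51.1, 50.3 and 55.7 CPM in control (log2 fold change 0.89, SE 0.05, adjusted p = 1.13e-11). One more gene with this activity, outside the map, fell by 0.82, and with it the activity was 114.0 ± 3.09 CPM in MSN and 76.2 ± 3.13 CPM in control. Other genes annotated to the response to hypoxia, a condition in which fermentation genes are known to rise, were few. Of 3 tested, 0 were higher and 1 lower (median log2 fold change -0.20), where over all genes 29.6% were higher and 29.7% lower. Any part of hypoxia in the changes of the fermentation genes was not tested.

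The S-(hydroxymethyl)glutathione dehydrogenase group, class III alcohol dehydrogenases that oxidise the glutathione adduct of formaldehyde and reduce S-nitrosoglutathione, was lower as a sum. It had 334.4, 338.8 and 341.5 CPM in MSN and 486.8, 487.8 and 482.1 CPM in control. A neighbouring pair on chromosome 12, within 1094542 to 1108270, carried most of it. GLYMA_12G015400 had 123, 125 and 125 CPM in MSN and 224, 232 and 219 CPM in control (log2 fold change -0.85, SE 0.04, adjusted p = 4.26e-13), and GLYMA_12G015100 had nearly the same values, with means of 125 CPM in MSN and 220.3 CPM in control (log2 fold change -0.82). No source used here says how reads shared by near-identical copies were counted. The split between these genes, and every sum that holds them, is therefore uncertain. The fall of the group lay in this pair. Among its other genes, GLYMA_20G050300 rose by 0.62, and GLYMA_14G042000 alone fell, with means of 0.840 CPM in MSN and 1.52 CPM in control. Another pair, on chromosome 2 within 45712025 to 45720843, went up. GLYMA_02G274100 had 42.8, 44.1 and 46.3 CPM in MSN and 12.1, 11.9 and 11.8 CPM in control (log2 fold change 1.90, SE 0.06, adjusted p = 5.77e-15), and GLYMA_02G274000 rose by 0.72. Per length, GLYMA_02G274100 held 16.8% of the group in MSN and 3.29% in control, and GLYMA_12G015400 held 47.4% in MSN and 62.5% in control. The 10 genes outside the map with these activities carry both, and all alcohol and S-(hydroxymethyl)glutathione dehydrogenases together were 568.2 ± 5.01 CPM in MSN and 701.1 ± 7.57 CPM in control.

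NADP+ alcohol dehydrogenase, the aldehyde-reducing enzyme that uses NADPH, was the most abundant group per length, at 312.9 FPKM in MSN and 583.9 FPKM in control. It also had the deepest fall as a sum, with 544.4, 490.8 and 506.5 CPM in MSN and 966.6, 947.9 and 925.7 CPM in control. With 9 genes outside the map the values were 759.4 ± 33.5 CPM in MSN and 1161 ± 26.3 CPM in control. The members of chromosome 3, within 13349361 to 13441205, went different ways although they are neighbours on the same strand. GLYMA_03G066800, with the highest FPKM of all 123 genes, had 277, 246 and 254 CPM in MSN and 578, 574 and 563 CPM in control (log2 fold change -1.14, SE 0.04, adjusted p = 1.88e-14). GLYMA_03G066600 had 14.9, 12.6 and 15.8 CPM in MSN and 31.7, 26.7 and 27.4 CPM in control (log2 fold change -0.99, SE 0.09, adjusted p = 1.20e-08). Between them, GLYMA_03G066700 rose by 0.52 (SE 0.07, adjusted p = 2.17e-06), with 28.7, 26.9 and 29.1 CPM in MSN and 21.3, 19.4 and 18.5 CPM in control. GLYMA_01G102600, second in the group at 110 FPKM in MSN and 167 FPKM in control, fell by 0.61 (SE 0.04).

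Aldehyde dehydrogenase, which oxidises aldehydes such as acetaldehyde to acids, held the largest rise of all members. GLYMA_12G057400, on chromosome 12 at 4178669 to 4181863 (minus strand), had 13.5, 12.2 and 13.5 CPM in MSN and 1.75, 1.84 and 1.27 CPM in control (log2 fold change 3.00, SE 0.15, adjusted p = 2.94e-12). The 11 genes of the group nevertheless summed to less, at 488.5, 481.0 and 471.2 CPM in MSN, against 544.4, 542.5 and 517.9 CPM in control. Its most abundant gene, GLYMA_06G183900, did not pass, with 230, 222 and 216 CPM in MSN and 217, 224 and 210 CPM in control (adjusted p = 0.393), and came out higher under quantile normalisation alone (log2 fold change 0.13). GLYMA_08G002700, next in level, fell by 0.48 (SE 0.04). With 27 genes outside the map, of which 10 rose and 8 fell, the sum was 882.0 ± 7.60 CPM in MSN and 915.0 ± 18.7 CPM in control. The 1 aminoadipate-semialdehyde dehydrogenase gene, GLYMA_15G178400, an enzyme of lysine breakdown that also oxidises betaine aldehyde by its EC numbers, had 55.1, 52.7 and 58.9 CPM in MSN and 74.5, 65.8 and 68.9 CPM in control (log2 fold change -0.33, SE 0.05, adjusted p = 3.44e-05). With 1 gene outside the map, GLYMA_09G070300, which fell by 0.86, that activity was 69.4 ± 3.61 CPM in MSN and 94.9 ± 5.74 CPM in control. GLYMA_09G070300 is also among the 27 genes added to aldehyde dehydrogenase.

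**Figure D3:**
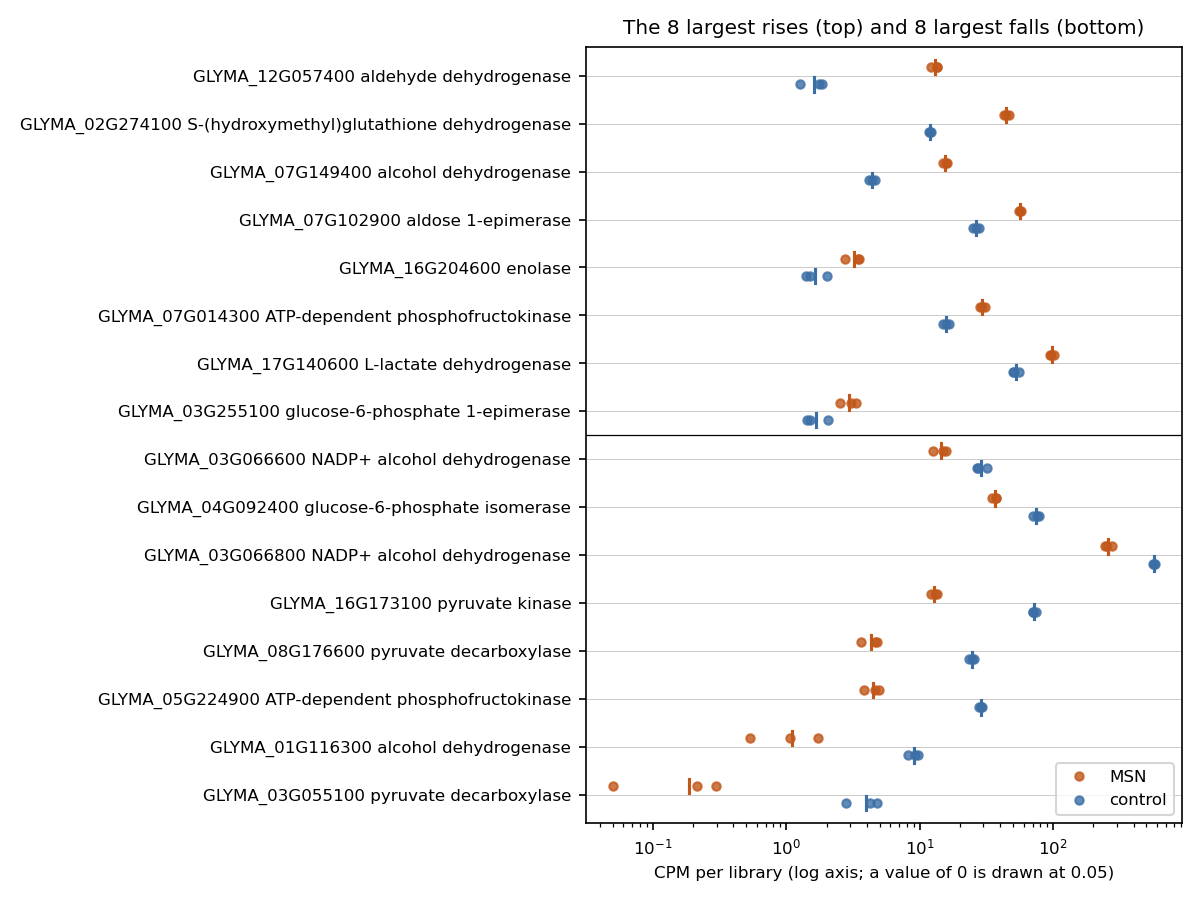
TMM-scaled CPM per library (log axis, a value of 0 drawn at 0.05) of the 8 largest rises (above the line) and the 8 largest falls (below it) among called genes whose groups did not overlap, with a bar at the mean of 3 libraries. GLYMA_12G057400 leads the rises at 12.2 to 13.5 CPM in MSN over 1.27 to 1.84 CPM in control, and GLYMA_03G055100 has the deepest fall.

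The fermentation and aldehyde role held 4 of the 8 largest rises and 5 of the 8 largest falls, with 39 of the 123 genes. In 11 of the 20 enzyme groups, of which 2 hold 1 gene each, genes of the same EC number were called in both directions. How often groups of other genes do so was not computed. Genes with a chloroplast GO term numbered 8, of which 2 rose and 5 fell (median log2 fold change -0.14), and genes with a cytosol term numbered 49, of which 13 rose and 20 fell (median -0.13). Over all genes 29.6% were higher and 29.7% lower. The terms overlap, as GLYMA_04G092400, GLYMA_06G094300 and GLYMA_02G212600 carry both. In all, 6 sets of members of the same enzyme lay within 200000 bases of each other, and called neighbours moved the same way in the pairs of chromosomes 2 and 12 but not in the chromosome 3 set.

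**Figure D4:**
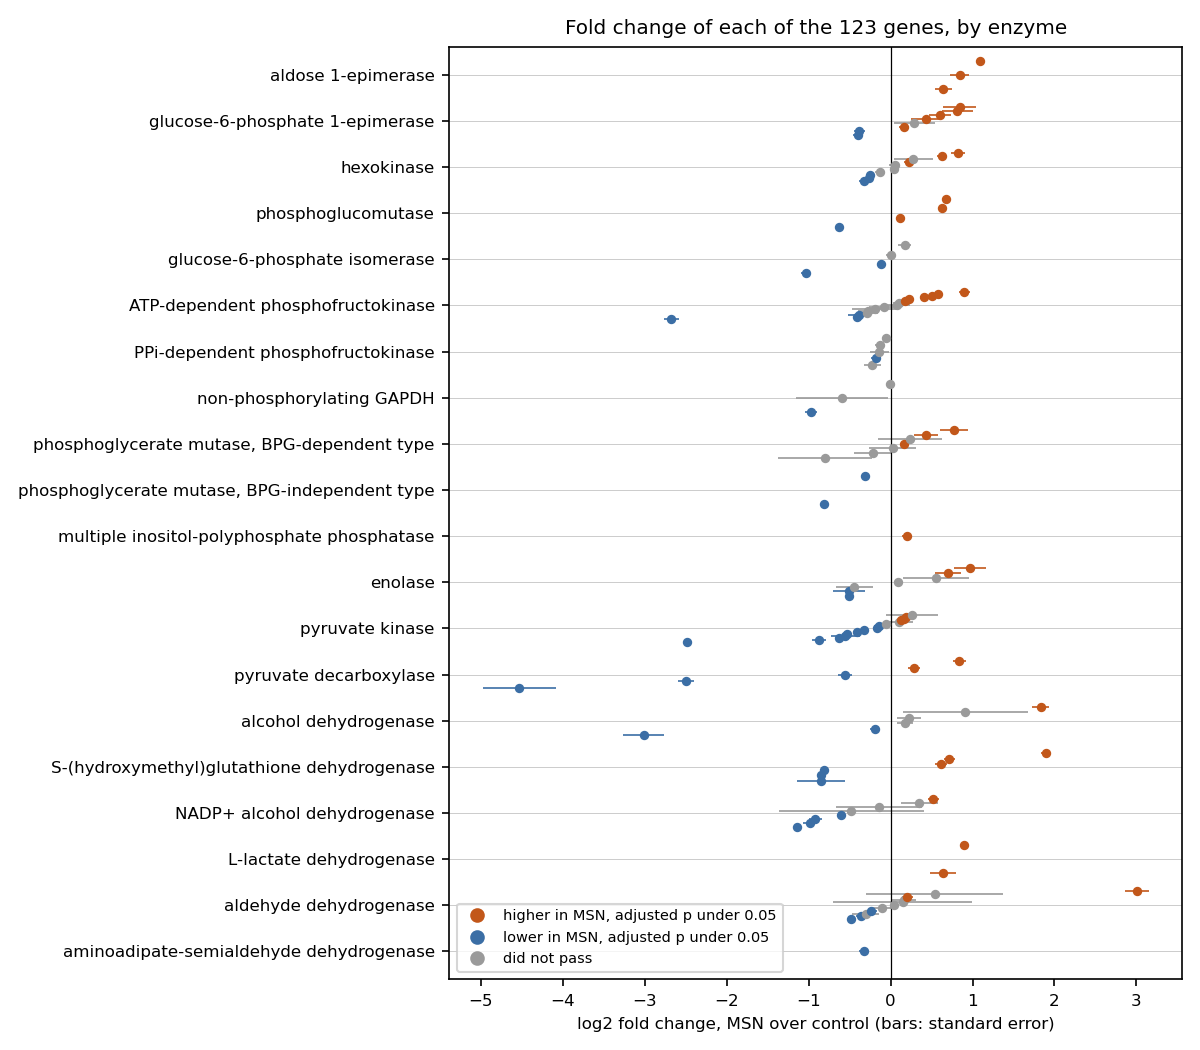
Log2 fold change of each of the 123 genes (MSN over control, bar: standard error), by enzyme group. Points to the right are higher in MSN, points to the left lower, and grey points did not pass. GLYMA_03G055100 lies farthest left at -4.53 and GLYMA_12G057400 farthest right at 3.00.

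The glycolysis genes that also carry the carbon fixation, citrate cycle or glyoxylate maps went both ways as well, by step. Of 54 such genes, 20 were higher and 28 lower (median log2 fold change -0.20). Their summed level was nevertheless higher in MSN, at 1993 to 2021 FPKM, against 1601 to 1657 FPKM in control. Together with the 123 genes, the sum was 3949 to 4001 FPKM in MSN and 3981 to 4078 FPKM in control, and the groups overlapped. Enzymes shared with the Calvin cycle were mostly higher: 7 of 8 fructose-1,6-bisphosphatase genes, all 4 triose-phosphate isomerase genes, both phosphoglycerate kinase genes and 4 of 7 aldolase genes, with 2 aldolase genes lower. Of 5 phosphorylating glyceraldehyde-3-phosphate dehydrogenase genes, 0 were higher and 3 lower. Of the pyruvate dehydrogenase complex, which leads from pyruvate to acetyl-CoA, 9 of 11 E1 genes and all 6 E2 genes were lower, while dihydrolipoyl dehydrogenase, its E3 enzyme, had 2 of 4 genes higher and 2 lower. Both PEP carboxykinase genes and the 1 pyruvate phosphate dikinase gene, which lead towards phosphoenolpyruvate, were lower. Acetyl-CoA synthetase had 1 of 2 genes higher and 1 lower, and both acetate/butyrate CoA ligase genes were lower.

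The neighbouring pathways, counted without the 123 genes and sharing some genes among themselves, also differed from each other. The pentose phosphate map had 28 of 55 genes higher and 17 lower, and fructose and mannose metabolism 35 of 70 higher and 17 lower. Starch and sucrose metabolism had 82 of 198 higher and 61 lower, and galactose metabolism 10 of 37 higher and 15 lower. The citrate cycle had 11 of 72 higher and 52 lower, pyruvate metabolism 20 of 88 higher and 49 lower, and carbon fixation 43 of 78 higher and 21 lower. These counts are descriptions and no list was tested as a set.

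**Figure D5:**
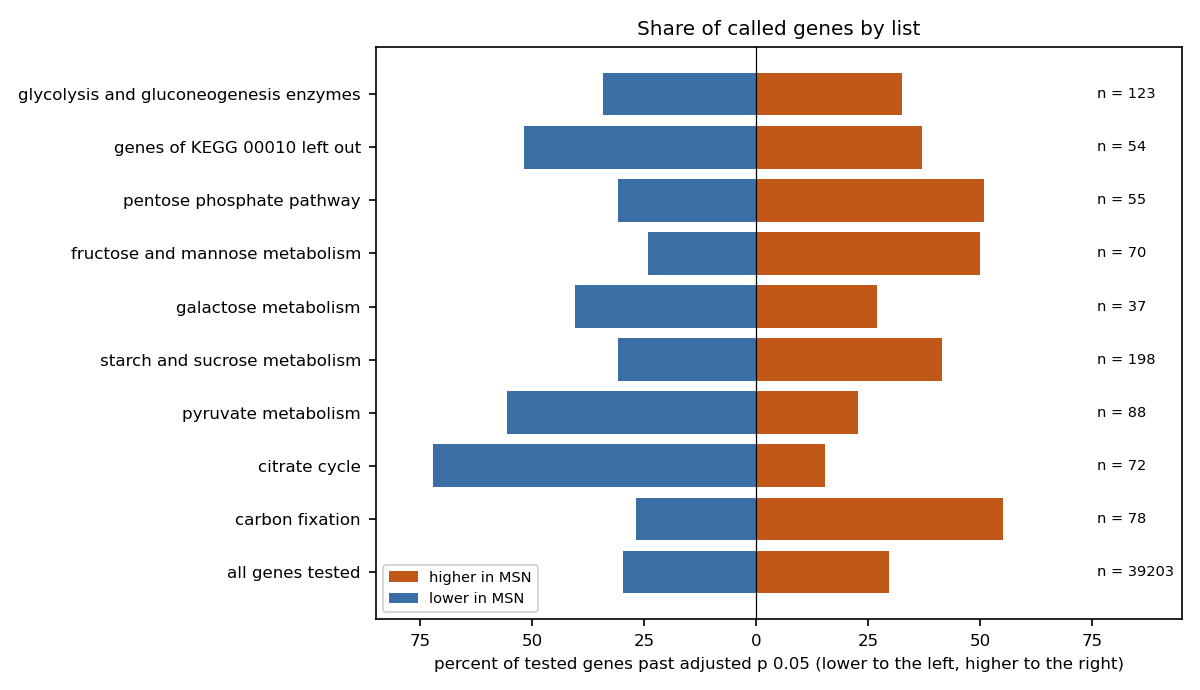
Percent of tested genes of each KEGG list (lists other than the first without its 123 genes) that were higher (right) or lower (left) in MSN at an adjusted p under 0.05, with the number tested. The 123 genes stand at 32.5% higher and 34.1% lower, next to 29.6% and 29.7% of all genes tested, and the citrate cycle at 15.3% higher and 72.2% lower.

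The leaf label was checked against photosystem and light-harvesting genes, whose summed level was 23330 to 24070 FPKM in MSN and 15610 to 16060 FPKM in control, and 161 of 197 tested were higher in MSN and 8 lower. Marker lists of other tissues differed in some cases, where over all genes 29.6% were higher and 29.7% lower. Of 18 phloem development genes tested, 15 were higher and 0 lower, with sums of 37.8 to 44.8 FPKM in MSN and 14.2 to 18.0 FPKM in control and no gene at 0 in all libraries. Nutrient reservoir genes, a seed marker list, had 14 of 48 higher (29.2%) and 12 lower (25.0%), no more than the shares over all genes. Their sums were 2260 to 2334 FPKM in MSN and 1283 to 1315 FPKM in control. Xylem, stomatal, pollen tube and oxygen carrier lists had 1 of 8, 4 of 16, 8 of 17 and 1 of 3 genes higher and 1, 1, 4 and 0 lower. The part of these differences in tissue markers in the changes of the glycolysis genes was not tested.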

How the data were processed

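Poly(A) RNA of 6 leaf libraries was sequenced from 1 μg of total RNA each, per the labels' protocols. Per the file headers, the deposited table gives each gene a count and an FPKM value in each library. The authors' counts were not normalised, and the deposited FPKM values are scaled by gene length and library total. The submitters' processing notes name DESeq2 1.34.0 and R 4.1.2. The sources used here do not name the aligner, counting rules, strand setting or genome build. Coordinates and strands are those of the table. Library totals were 64796004, 67923813 and 63981150 counts in MSN and 65537749, 67795796 and 66059433 in control. Of counts from 1 to 12, 17.7 to 19.0% equalled 4 and 10.0 to 12.3% equalled 8, so counting precision is below what the totals give.

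Counts of all genes were fitted with edgeR 4.0.16 (R 4.3.3; TMM, filterByExpr, glmQLFit and glmQLFTest, 2-sided), and p-values were Benjamini-Hochberg adjusted over 39203 genes with a threshold of 0.05. The common biological coefficient of variation was 0.0867. On counts simulated with a common dispersion, 100 of 100 genes changed 2-fold were recovered, all drawn from genes with mean counts above 100. That figure does not cover lower counts or smaller changes. CPM are TMM-scaled. FPKM was used for levels between genes. Enzyme sums were not tested. Alternatives used RLE, DESeq2 1.42.0, limma 3.58.1 (on voom with quantile normalisation and on log2 FPKM), counts divided by 4, a replicate block and each library left out.

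Genes were named by a rule: the most abundant gene of each enzyme group, the 8 largest rises and falls among called genes whose groups did not overlap, the 3 most abundant genes that did not pass, and per group the called gene that moved most against the sum. That gave 40 genes. Other genes named (next in level, or sharing a group) were chosen after their values were seen. The genes and lists were chosen with earlier results of these data known.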

Additional observations from a re-analysis of the deposited data

How the results depend on the processing

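Of the 82 called genes, 73 to 82 were also called in the same direction under each of the alternatives to the edgeR test (other size factors, DESeq2, no filter on low counts, quantile normalisation, FPKM with limma, counts divided by 4, a replicate block and each library left out), and 0 were called in the opposite direction. With the replicate block 81 stayed called. Same-numbered libraries did not deviate together (correlations -0.0026, 0.010 and 0.0018), so no pairing by number was seen. A pairing that left no shared deviation in expression would not show in these values. The median log2 fold change of the members stayed near 0: -0.0161 on log2(FPKM + 0.1), -0.0240 with the replicate block and -0.0400 to 0.0272 with each library left out. With no exclusion of the other maps, 177 genes had a median of -0.0866, 60 were higher and 70 lower. The summed FPKM of these 177 genes overlapped between MSN and control libraries. The list for response to hypoxia had 2 genes lower under DESeq2 and under quantile normalisation. Enzyme sums whose groups did not overlap kept their direction under FPKM and with no TMM factor, while quantile normalisation was not run on the sums. Adding genes outside the map was chosen after seeing the data. Among member sums whose groups did not overlap, it turned 1 round (summed CPM log2 MSN over control: PPi-dependent phosphofructokinase, 0.146 in place of -0.131). Sums that had overlapped also came apart with MSN above control. These were glucose-6-phosphate 1-epimerase (0.479 in place of -0.014) and alcohol dehydrogenase taken by itself (0.094 in place of 0.049).

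Depth limits genes under 1 FPKM, of which 16 of 22 did not pass, and 5 genes had a library at 0. With 3 libraries per group, 1 genotype, 1 cultivar and 1 time, dose and time cannot be assessed, and the labels give the same batch value to all libraries.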
